A study of Sus scrofa with 13 samples.

Results

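The stellate cell and stromal genes examined here are 10 genes that mark the mesenchymal cells of liver and the matrix they make: ACTA2, TAGLN, PDGFRB, DES, LUM, DCN, TIMP1, FN1, RGS5 and SPARC. They were chosen by symbol from the 35670 genes of the count table. The rule itself used no measured value, though the set was drawn up with earlier results of these data known. Each of the 10 symbols matched 1 gene, and all 10 passed the filter on low counts, after which 16481 genes were tested. No sequence is shown for these genes.

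The study was foremost about the safety of infusing human cells into the vessels of an ischemic pig liver, and in second place about where the cells go and which biological effects follow, by route. Bulk RNA sequencing covered 13 liver libraries of purpose-bred female Yorkshire pigs in 4 groups. Baseline livers, sampled before any ischemia and given no cells, were represented by 2 libraries, replicates 1a and 2. Ischemic controls were 3 libraries from livers that underwent 45 min of total vascular occlusion and 6 h of reperfusion and received no cells. The arterial and portal groups, of 4 libraries each, had the same 45 min of ischemia and 6 h of reperfusion and were given 3 M (M for mega) human bone marrow-derived mesenchymal stromal cells (BM-MSCs) per kg body weight, either into the hepatic artery or into the portal vein. These cells came from a commercial source and were expanded in culture. The labels do not say whether a baseline and a post-ischemic library came from the same animal.

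Hepatic stellate cells lie in the space between hepatocytes and sinusoidal endothelium, where at rest they store vitamin A. After injury they can become contractile, matrix-producing myofibroblasts, a change marked by smooth muscle actin and driven by TGF-beta and PDGF signals, and portal fibroblasts contribute as well. Several of the 10 genes are not private to stellate cells: ACTA2, TAGLN and DES also mark vascular smooth muscle, FN1 is a major secretory product of hepatocytes, and SPARC is made by endothelium too. Cultured BM-MSCs are themselves of mesenchymal type and express many of these genes. Reads were mapped to the pig genome only, so human and pig reads are not separated in the counts, and the share of human reads was not measured.

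Total counts on genes were between 18975413 and 35949178 per library, with a median of 30260803. Normalized counts below are counts divided by a size factor for each library, and log2 fold changes come from edgeR's quasi-likelihood test over all 13 libraries, with their standard error (SE). The common biological coefficient of variation was 0.729, which is wide. The libraries arterial 1, portal 1 and portal 4 stood apart, with 887, 322 and 492 genes at 1 to 9 reads, compared with 1744 in arterial 2 and 3804 to 5358 in the other 9. The members were low in them too: arterial 1 was among the 3 lowest of 13 libraries for 7 members, and portal 1 and portal 4 for 6 members each. For comparisons of infused livers, the fold changes of the members printed below with an SE are also given without these 3 libraries. Of the portal livers only portal 2 and portal 3 then remain. Not every member is printed for every comparison. The medians of the lists are given without these libraries only for all infused livers against controls. What part these libraries have in the other values was not tested. Hepatocyte genes such as those of albumin and the apolipoproteins were read in every library, with 0 of the 11 hepatocyte markers measured at 0 in any of them.

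None of the stromal genes passed the test in any comparison. With edgeR and p-values adjusted by Benjamini-Hochberg over all genes, 0 of 10 members and 0% of the 16481 genes tested were called at 0.05 between ischemic controls and baseline, between all 8 infused livers and controls, between either route and controls, or between the 2 routes. DESeq2, fitted to all libraries or only to those of the groups compared, also called 0 of the 10 members in each of the 5 comparisons. At an unadjusted p under 0.05, the number of members was 0 for controls against baseline, 1 for infused against controls, 0 for arterial against controls, 3 for portal against controls and 0 for arterial against portal. Over all genes tested, these shares were 4.37%, 2.14%, 1.57%, 2.79% and 2.40%. The members past that level were SPARC, DCN and PDGFRB, each lower in portal livers than in controls, and SPARC also over all infused livers. Without arterial 1, portal 1 and portal 4, 1 member was lower and 1 higher for portal against controls at that level. For infused against controls 0 were then lower and 1 higher. The shares over all genes are not given for that fit. In bulk tissue, fewer cells of a type and less RNA per cell cannot be told apart.

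**Figure D1:**
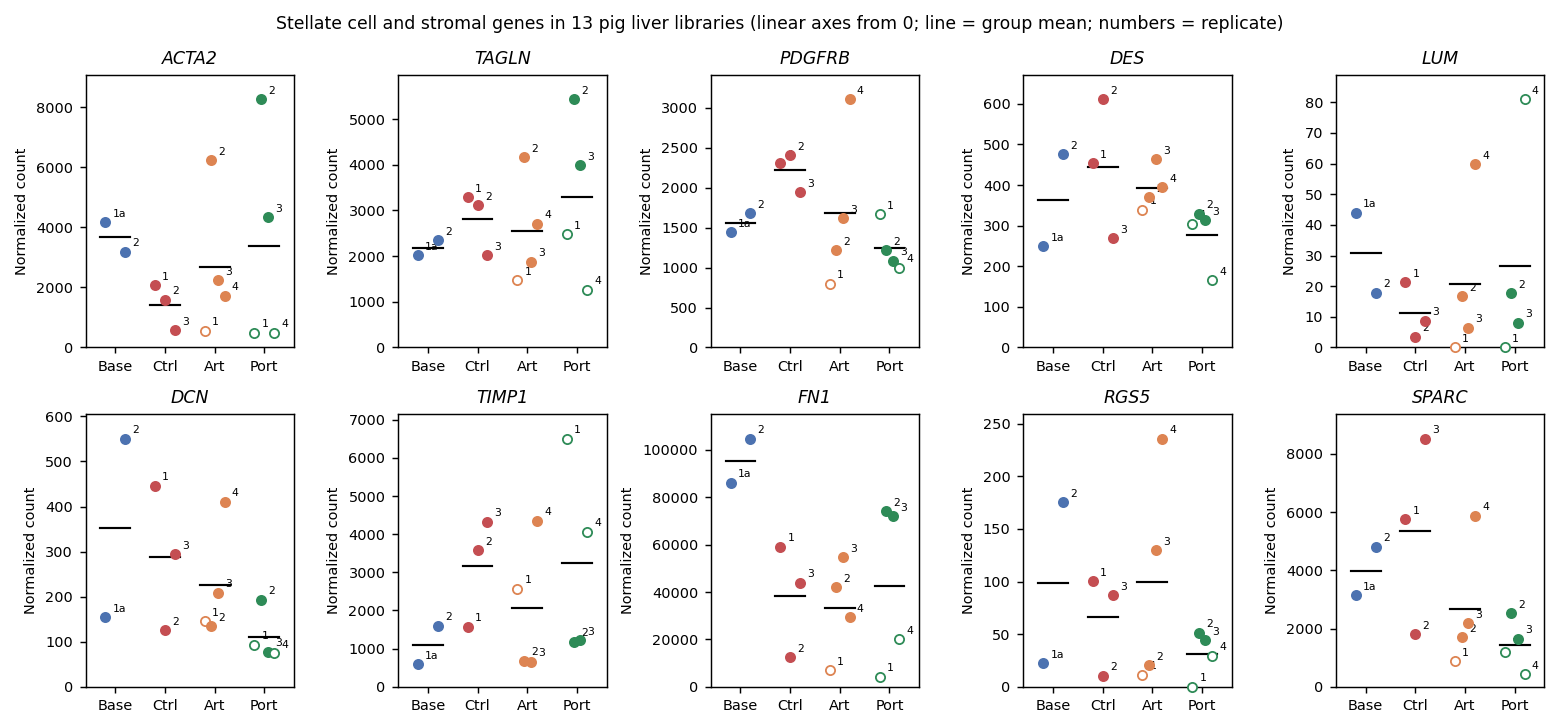
Normalized counts (linear axis from 0) of the 10 stromal genes in each of the 13 libraries, by group, with 1 point per library, a line at the group mean, and open points for arterial 1, portal 1 and portal 4. All 11 livers at 6 h lie below both baseline livers for FN1 (baseline 86202 and 104780.0), and the 4 portal livers lie below the 3 controls for PDGFRB (highest portal value 1666, lowest control value 1945).

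ACTA2 encodes smooth muscle alpha-actin, the contractile actin that marks the activated stellate cell, and spans 100868145 to 100886732 of chromosome 14 in the assembly Sscrofa11.1. In normalized counts it was at 4165 and 3188 in the baseline livers and at 2076, 1586 and 583 in controls 1 to 3. Arterial livers 1 to 4 had 558, 6234, 2247 and 1719, and portal livers 1 to 4 had 486, 8262, 4328 and 497. All 3 controls lay below both baseline livers, whereas the infused livers spread from below the lowest control to above the highest baseline value. The 3 lowest of the 13 libraries were portal 1, portal 4 and arterial 1, the ones with few genes at 1 to 9 reads.

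For controls against baseline the log2 fold change of ACTA2 was -1.38 ± 1.09 (SE), with an adjusted p of 0.978 in edgeR and an exact two-sided permutation p of 0.2, where 0.1 is the smallest that 2 against 3 libraries allow. Infused livers against controls gave a log2 fold change of 1.09 ± 0.87 (SE), with a 95% interval from -0.76 to 2.95. Without arterial 1, portal 1 and portal 4 that log2 fold change of ACTA2 was 1.70, with an unadjusted p of 0.00754 and an adjusted p of 0.226 in edgeR. ACTA2 was 1 of 10 members higher at an unadjusted p under 0.05 in that fit, whose share over all genes is not given. In the 5 infused libraries that then remain, arterial 4 alone lay within the range of the controls. Between the routes the log2 fold change of ACTA2 was -0.38 ± 0.85 (SE), and it changed sign to 0.57 without portal 2, the library with the highest value, and was -0.90 without arterial 1, portal 1 and portal 4.

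TAGLN encodes transgelin, an actin-binding protein of smooth muscle and myofibroblasts, on chromosome 9 from 44561756 to 44567385. The baseline livers had 2023 and 2351 normalized counts of TAGLN and the controls had 3293, 3113 and 2019.9. After arterial infusion the values were 1474, 4163, 1876 and 2712, and after portal infusion 2481, 5434, 3994 and 1265. Every group overlapped every other for TAGLN, and portal 2, arterial 2 and portal 3 were the highest. The log2 fold change was 0.36 ± 0.59 (SE) for controls against baseline and 0.035 ± 0.44 (SE) for infused livers against controls, the latter with a 95% interval from -0.90 to 0.97 and a sign that varied with the control left out, from -0.18 without control 3 to 0.21 without control 1. It was 0.39 without arterial 1, portal 1 and portal 4.

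DES encodes desmin, the intermediate filament of muscle that quiescent and activated stellate cells share, on chromosome 15 from 121428539 to 121435426. It was read at 249.9 and 476 normalized counts in the baseline livers and at 454, 611 and 269.6 in controls. Arterial livers had 339, 369.5, 463 and 395, and portal livers had 305, 329.7, 313 and 166. The 4 arterial values all lay above the 4 portal values, though the gap between arterial 1 and portal 2 was small. For arterial against portal livers the log2 fold change of DES was 0.51 ± 0.38 (SE), with an adjusted p of 1.00 in edgeR and an exact two-sided permutation p of 0.0286, the smallest that 4 against 4 libraries allow. Of the 10 members only DES, or 1, had route groups that did not overlap, and 0.910% of all genes tested were higher in arterial livers without overlap. Leaving out portal 4, the lowest of the 13 libraries, gave a log2 fold change of 0.32, and leaving out arterial 1, portal 1 and portal 4 gave 0.33.

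PDGFRB encodes the beta receptor of platelet-derived growth factor, through which stellate cells and pericytes are called to divide and migrate, on chromosome 2 from 151155753 to 151192818. Baseline livers had 1441 and 1680.5 normalized counts of PDGFRB, and controls had 2305, 2403 and 1945, all above baseline. The arterial livers had 798, 1220.0, 1619 and 3105, and the portal livers had 1666, 1216, 1086 and 997. All 4 portal values lay below all 3 controls, and arterial 4 was the only infused liver above them. PDGFRB is 1 of the 10 members lower without overlap in portal livers than in controls, where 2.33% of all genes tested were.

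The log2 fold change of PDGFRB was 0.50 ± 0.50 (SE) for controls against baseline, with an exact permutation p of 0.1, the smallest possible. Against controls it was -0.88 ± 0.41 (SE) in portal livers, with an unadjusted p of 0.0475 in edgeR, an adjusted p of 1.00 and an exact two-sided permutation p of 0.0571, and -0.40 ± 0.41 (SE) in arterial livers. Without arterial 1, portal 1 and portal 4 the value was -0.18 for arterial and -0.94 for portal livers, and the latter ranged from -1.01 to -0.78 as each library was left out. Between the routes the log2 fold change of PDGFRB was 0.48 ± 0.38 (SE), which came to 0.0089 without arterial 4 and to 0.76 without arterial 1, portal 1 and portal 4.

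RGS5 encodes a regulator of G-protein signalling found in pericytes and smooth muscle of small vessels, on chromosome 4 from 87286953 to 87340816. Its levels were low: 22.4 and 175 normalized counts at baseline, and 100.5, 10.5 and 86.7 in controls. The arterial livers had 11.6, 20.4, 129.8 and 236, and the portal livers had 0, 51.4, 44.1 and 29.4. RGS5 varied more within groups than between them, and both the baseline pair and the controls held a high and a low library. The 0 in portal 1 allows up to 3 reads, or 3.78 normalized counts there. Among 2733 genes of similar mean level, 23.5% were also at 0 in portal 1. The log2 fold change for arterial against portal livers was 1.65 ± 1.19 (SE), with a 95% interval from -0.88 to 4.19, and it was 0.80 without arterial 4 and 1.40 without arterial 1, portal 1 and portal 4. For controls against baseline it was -0.53 ± 1.47 (SE), and leaving out baseline 2 turned it to 1.55.

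LUM and DCN encode lumican and decorin, small leucine-rich proteoglycans that bind collagen fibrils, and they lie near each other on chromosome 5, LUM from 91748871 to 91756381 and DCN from 91678601 to 91713925. LUM was read at 44.0 and 17.9 normalized counts at baseline, at 21.4, 3.50 and 8.67 in controls, at 0, 16.7, 6.49 and 59.7 in arterial livers, and at 0, 17.7, 8.03 and 81.0 in portal livers. These rest on 66 reads at most, so that only very large differences were detectable at this depth. Portal 4, among the lowest libraries for 6 of the other members, had the most LUM, and the libraries at 0 were arterial 1 and portal 1. A count of 0 allows up to 3 reads, which is 2.68 normalized counts in arterial 1 and 3.78 in portal 1, and 25.9% and 46.2% of 2625 genes of similar level were at 0 in these libraries. Every group of livers overlapped the others for LUM, and the log2 fold change was -1.42 ± 1.81 (SE) for controls against baseline and 0.98 ± 1.44 (SE) for infused livers against controls, the latter 0.69 without arterial 1, portal 1 and portal 4 and 0.21 without portal 4 alone.

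DCN was read at 154 and 551 normalized counts at baseline and at 446, 126 and 294 in controls. Arterial livers had 145, 135, 208 and 411, and portal livers had 93.1, 193, 78.3 and 74.8. The 3 lowest of the 13 libraries were all portal livers, while portal 2 lay within the range of the controls. The log2 fold change of DCN was -1.44 ± 0.61 (SE) for portal livers against controls, with an unadjusted p of 0.0339 in edgeR, an adjusted p of 1.00 and an exact two-sided permutation p of 0.0857. It was -1.09 without arterial 1, portal 1 and portal 4, with an unadjusted p of 0.147, and -0.94 without control 1, the control with the most DCN. For arterial livers against controls the log2 fold change of DCN was -0.40 ± 0.61 (SE), which was -0.23 without arterial 1, portal 1 and portal 4, and the sign turned to 0.099 without control 1. Arterial against portal livers gave 1.04 ± 0.58 (SE), with an exact permutation p of 0.0857, and 0.86 without arterial 1, portal 1 and portal 4.

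SPARC encodes osteonectin, a matricellular protein that binds collagen and is made by mesenchymal and endothelial cells, on chromosome 16 from 71368164 to 71380972. The baseline livers had 3147 and 4805 normalized counts of SPARC, and the controls had 5758, 1811 and 8522. Arterial livers had 868, 1705, 2190.3 and 5876, and portal livers had 1207, 2518, 1643 and 433. Of the 8 infused livers, 5 lay below the lowest control, and arterial 4 alone was above control 1. Between infused livers and controls SPARC gave the smallest unadjusted p of the members, 0.0213 in edgeR, with a log2 fold change of -1.48 ± 0.57 (SE), an adjusted p of 1.00 and an exact two-sided permutation p of 0.0970. SPARC ranked 136 of the 16481 genes by that p, and it was 1 of 10 members lower at this level, where 1.41% of all genes tested were.

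By route the log2 fold change of SPARC against controls was -1.91 ± 0.69 (SE) in portal livers, with an unadjusted p of 0.0144 in edgeR and an exact permutation p of 0.114, and -1.04 ± 0.68 (SE) in arterial livers. Without arterial 1, portal 1 and portal 4 it was -1.05 for all infused livers, with an unadjusted p of 0.0556, -1.36 for portal livers and -0.74 for arterial livers. Leaving out control 3, which had the most SPARC, gave -0.99 for all infused livers, with an unadjusted p of 0.154. The routes gave a log2 fold change of 0.87 ± 0.64 (SE), arterial against portal, which came to 0.14 without arterial 4 and to 0.61 without arterial 1, portal 1 and portal 4, so a difference of SPARC between the routes was not shown. For controls against baseline it was 0.45 ± 0.83 (SE), and -0.041 without control 3.

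FN1 encodes fibronectin, the adhesive glycoprotein of plasma and of early wound matrix, on chromosome 15 from 117658158 to 117737145. The baseline livers had 86202 and 104780.0 normalized counts of FN1 and the controls had 59156, 12555 and 43882. The arterial livers had 7059.6, 41972, 54786 and 29311, and the portal livers had 4297, 74209.6, 71905 and 19971. All 11 livers at 6 h lay below both baseline livers, and 3.97% of all genes tested were lower in that way without overlap. The log2 fold change of FN1 was -1.28 ± 1.00 (SE) for controls against baseline, with an adjusted p of 0.978 in edgeR, and without arterial 1, portal 1 and portal 4, which then do not enter the estimate of the spread, it was -1.29 with an unadjusted p of 0.0343 and an adjusted p of 0.318. In that fit 2 of 10 members, FN1 among them, were lower at an unadjusted p under 0.05 in edgeR, and the share over all genes is not given. The log2 fold change of FN1 was -1.32 ± 0.78 (SE) for all 11 livers at 6 h against baseline, with an adjusted p of 0.860 and an exact two-sided permutation p of 0.0769, where 0.0128 is the smallest possible. Infused livers and controls overlapped for FN1, with a log2 fold change of -0.051 ± 0.75 (SE), which was 0.52 without arterial 1, portal 1 and portal 4 and lay between -0.48 without control 2 and 0.44 without control 1.

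TIMP1 encodes a secreted inhibitor of matrix metalloproteinases that injured liver makes, on the X chromosome from 42103251 to 42106289. Baseline livers had 598 and 1596 normalized counts of TIMP1, and controls had 1577, 3572 and 4327. Arterial livers had 2571, 684, 662 and 4356, and portal livers had 6504, 1178, 1222 and 4068. Control 1 lay just below baseline 2, and the infused livers of each route held high and low values, with arterial 2, arterial 3, portal 2 and portal 3 at baseline values. TIMP1 had the smallest unadjusted p of the members for controls against baseline, 0.112 in edgeR, with a log2 fold change of 1.52 ± 0.90 (SE), which ranged from 0.98 without baseline 1a to 2.34 without baseline 2. For infused livers against controls the log2 fold change was -0.33 ± 0.62 (SE), and it was -1.08 without arterial 1, portal 1 and portal 4, of which portal 1 had the highest TIMP1 value of the 13 libraries. Between the routes it was -0.58 ± 0.66 (SE), and it turned to 0.62 without those libraries.

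**Figure D2:**
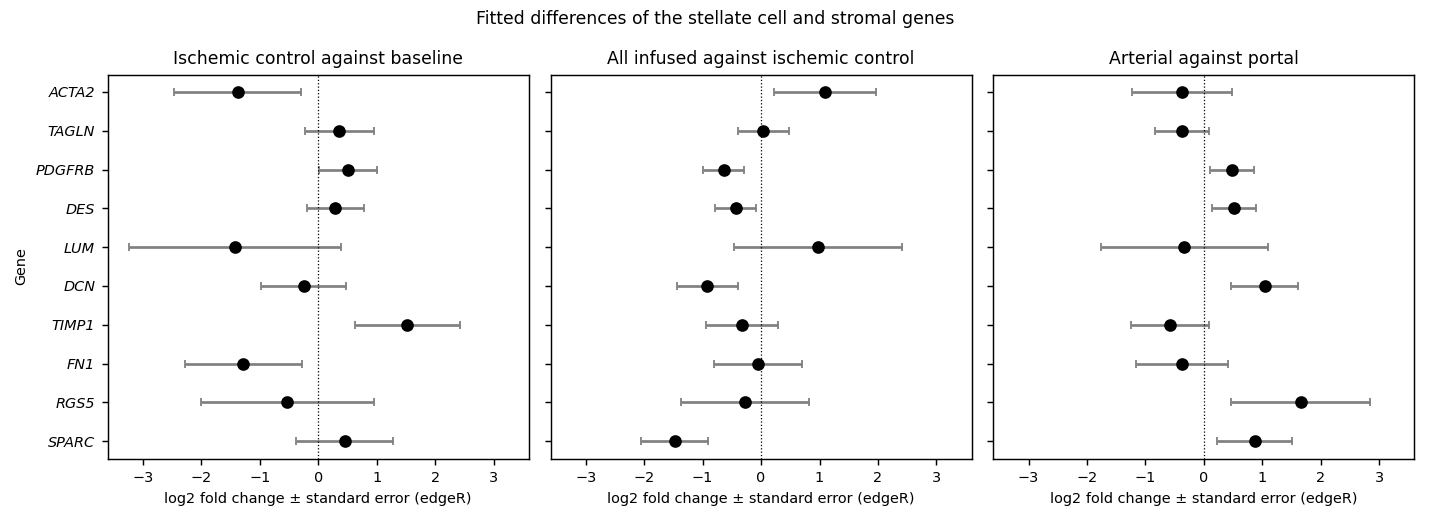
Log2 fold changes (linear axis) of the 10 stromal genes for controls against baseline, all infused livers against controls, and arterial against portal livers, with points at the edgeR estimate and bars of 1 SE to either side. In the comparison of infused livers with controls SPARC lies furthest below 0 at -1.48, and ACTA2 furthest above 0 at 1.09.

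For controls against baseline, 1 of the 10 members, PDGFRB, was higher without overlap and ACTA2 and FN1 were lower without overlap, which makes 3 of 10 against 31.1% of all genes tested. Of these all genes, 14.8% were higher and 16.3% lower without overlap, so the members did not exceed the background. The median log2 fold change was 0.019 over the members and 0.0048 over all genes, with 5 members on either side of 0. For all infused livers against controls no member was free of overlap, where 0.564% of all genes tested were, in either direction. The median was -0.30 over the members and -0.023 over all genes, and 7 of 10 members were below 0. Without overlap, 0 members differed between arterial livers and controls, against 3.19% of all genes, and the medians were -0.21 over the members and 0.011 over all genes. For portal livers against controls the medians were -0.36 and -0.023, and 3 of 10 members had an unadjusted p under 0.05 and were lower, where 1.66% of all genes tested did. The 2 route comparisons share the 3 controls and are not independent of each other.

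Across the 13 libraries the members did not form 1 block. Of the 45 pairs of members, 35 had a Pearson correlation above 0 on the log2(normalized count + 1) scale, with a median of 0.29, each over the same 13 libraries with their shared depth, groups and size factors. Fewer pairs were above 0 over the 10 libraries without arterial 1, portal 1 and portal 4, in which many members were low together. DCN and SPARC were most alike, with r = 0.84, and r = 0.83 over the 10 libraries without arterial 1, portal 1 and portal 4. RGS5 went with FN1 at r = 0.75, with DCN at r = 0.70, with LUM at r = 0.63 and with SPARC at r = 0.60. Over the 10 libraries these were 0.36, 0.77, 0.36 and 0.65. ACTA2 and TAGLN had r = 0.74 and ACTA2 and FN1 also r = 0.74, which came to 0.63 and 0.46 over the 10 libraries. TIMP1 ran against ACTA2, with r = -0.80, and against FN1, with r = -0.69, and these were -0.73 and -0.58 over the 10 libraries. PDGFRB and ACTA2 had r = -0.0043 over the 13 libraries but -0.71 over the 10. Several pairs changed sign, among them ACTA2 and SPARC from 0.29 to -0.63 and PDGFRB and FN1 from 0.087 to -0.59. TIMP1 and SPARC went the other way, from -0.10 to 0.55. Such pairs read differently by the libraries kept.

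**Figure D3:**
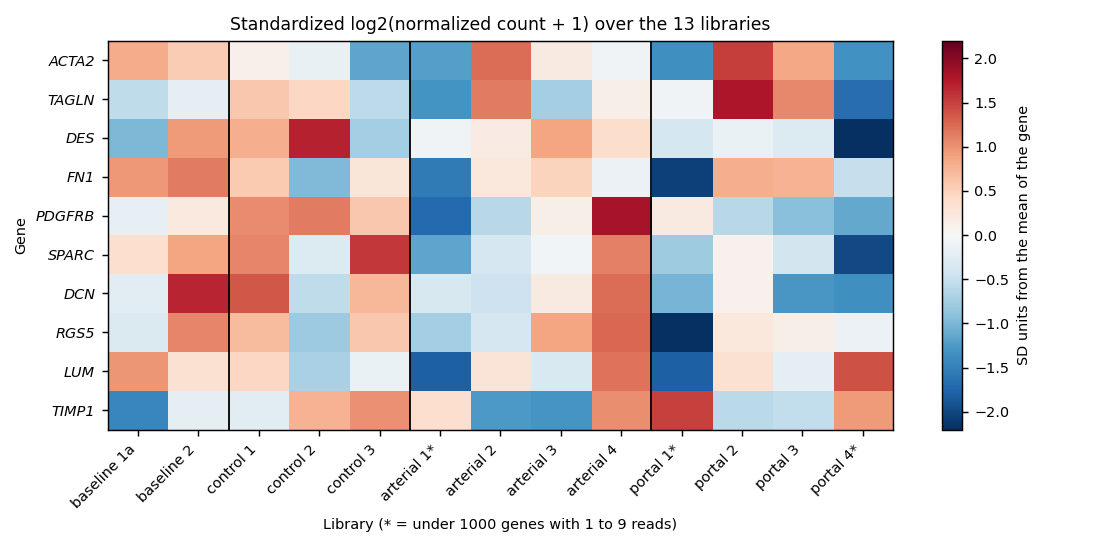
Each of the 10 stromal genes in the 13 libraries, as log2(normalized count + 1) standardized over the libraries (colour scale in SD units from the mean of the gene), with black lines between groups and asterisks at arterial 1, portal 1 and portal 4. The mean over the members was lowest in these libraries, at -0.96, -0.82 and -0.80 SD units, and highest in arterial 4 at 0.79.

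**Figure D4:**
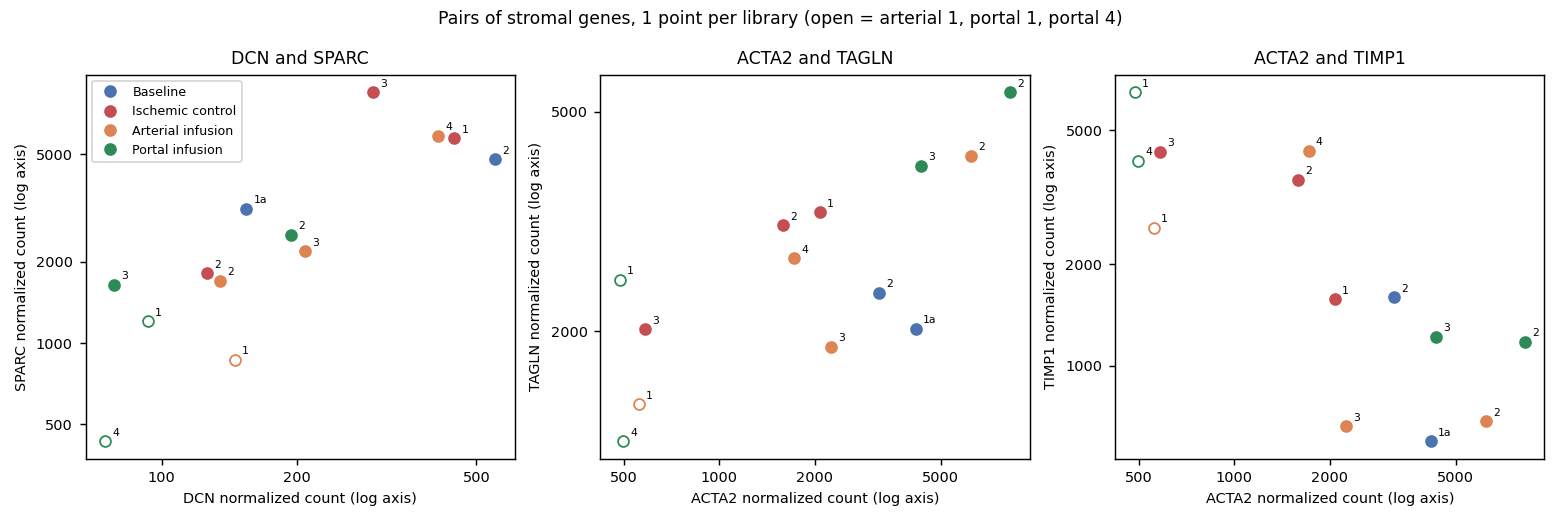
Normalized counts of DCN and SPARC, of ACTA2 and TAGLN, and of ACTA2 and TIMP1 (log axes), with 1 point per library labelled by replicate, coloured by group and open for arterial 1, portal 1 and portal 4. The first pair runs together (r = 0.84), the second likewise (r = 0.74), and the third runs in opposite directions (r = -0.80).

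The genes outside the set whose pattern over the 13 libraries was most like each member are given by their Pearson correlation, as a description. COL1A2, a chain of type I collagen, was among the 3 genes most like SPARC (r = 0.96) and among the 3 most like DCN (r = 0.91). MMRN1 was most like DCN, with r = 0.95, and TPM4, a tropomyosin, most like ACTA2, with r = 0.97. The genes most like FN1 were PROS1 and CP, which encode the plasma proteins protein S and ceruloplasmin, with r = 0.99 and r = 0.98, and CD34 was among those most like RGS5, with r = 0.92. BIRC3 was most like TAGLN at r = 0.90, PAK1 most like PDGFRB at r = 0.89, PELO most like DES at r = 0.85, SLC4A8 most like LUM at r = 0.94 and PSD3 most like TIMP1 at r = 0.93. For the mean of the 10 members ATP8A2 led, at r = 0.94, which was 0.75 over the 10 libraries without arterial 1, portal 1 and portal 4, and TMEM61 and SSH2 came next at r = 0.94 each. The matrix genes COL14A1 and COL21A1 were also among the 10 genes most like that mean, at r = 0.93 each.

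The other genes of the stromal pathways were read from 10 lists, of which 0 genes passed the edgeR test in either direction in any comparison, and VCL, CCN2 and PDPN stand in more than 1 list or marker set. Of the 108 genes of these lists tested, counted once each, 29 did not overlap between controls and baseline (16 higher, 13 lower), where 31.1% of all genes tested did not, so nothing is read from the absence of overlap in single genes of that comparison below. The list of resting stellate cells, with vitamin A handling and growth factor genes, had 13 of 13 genes tested. Its median log2 fold change was -0.07 for controls against baseline and -0.38 for infused livers against controls, where 11 of 13 were below 0. RELN, which encodes reelin, had 2046 ± 673 normalized counts (SD) in the 2 baseline livers and 1053 ± 199.8 (SD) in the 3 controls, a log2 fold change of -0.95 ± 0.40 (SE), which was -0.62 without baseline 2. GFAP, an intermediate filament of astrocytes and stellate cells, was at 5.38 ± 4.33 (SD) in the baseline livers and 55.4 ± 45.1 (SD) in the controls. Its log2 fold change of 3.33 ± 1.52 (SE) rests on very low baseline values, 2.31 and 8.44 normalized counts. It ranged from 2.58 without control 2 to 4.43 without baseline 2. LRAT, the enzyme that esterifies retinol for storage, had a log2 fold change of 1.08 ± 0.55 (SE) for infused livers against controls, and HGF, hepatocyte growth factor, one of -0.77 ± 0.55 (SE), which was 0.22 without control 1.

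The list of the contractile cytoskeleton, 12 genes tested, had medians of -0.13 for controls against baseline and -0.15 for infused livers against controls. VCL, vinculin of cell adhesions, was at 2749 ± 382 normalized counts (SD) in the baseline livers and 1018 ± 217 (SD) in the controls, a log2 fold change of -1.43 ± 0.62 (SE). MYL9, a myosin light chain, gave 0.86 ± 0.61 (SE) in the same comparison, which was -0.041 without control 2. TPM1 and VIM had log2 fold changes of 0.58 ± 0.42 (SE) and -0.41 ± 0.33 (SE) for infused livers against controls, which were 0.36 without control 2 and -0.074 without control 3. The pericyte and vascular smooth muscle list had 9 of its 10 genes tested, HIGD1B being at 0 in all 13 libraries, with medians of -0.55 and -0.78. KCNJ8, a potassium channel of pericytes, had a log2 fold change of 1.88 ± 0.76 (SE) for controls against baseline and CSPG4 one of -1.22 ± 1.48 (SE), the latter -0.66 without control 2. NOTCH3 and MYOCD were at -1.40 ± 0.87 (SE) and -2.44 ± 1.48 (SE) for infused livers against controls, MYOCD on very few reads, and at -0.85 and -1.81 without arterial 1, portal 1 and portal 4.

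The list of portal fibroblasts and fibroblasts stood lowest of the 10 for infused livers against controls. All 10 of its genes tested had a log2 fold change below 0, with a median of -0.94 beside -0.023 over all genes, and 4 of 10 had an unadjusted p under 0.05, each lower, where 1.41% of all genes tested did. MFAP4, a microfibril-associated glycoprotein, had 552, 485 and 699.5 normalized counts in the controls, 483.6, 217, 179 and 358 in arterial livers, and 467, 217, 147 and 185 in portal livers. All 8 infused livers lay below the 3 controls for MFAP4, though arterial 1 at 483.6 was close to control 2 at 485, and 0.340% of all genes tested were lower in this way. Its log2 fold change was -1.09 ± 0.39 (SE), with an adjusted p of 1.00 in edgeR and an exact two-sided permutation p of 0.0121, where 0.00606 is the smallest possible. FBLN2, fibulin 2, gave -1.84 ± 0.79 (SE), and -1.21 without control 3. Against baseline the controls were higher for MFAP4, at 1.24 ± 0.58 (SE), and the list's median was 0.54. The summed level of the list was 10007 to 12501 normalized counts in controls, 4751 to 8795 in infused livers and 6732 to 9725 at baseline.

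Matrix proteoglycans and glycoproteins, 15 genes tested, had a median of -0.05 for controls against baseline and of -0.49 for infused livers against controls. BGN, biglycan, was at 2766 ± 5.65 normalized counts (SD) in the baseline livers and 5708 ± 1619 (SD) in the controls, a log2 fold change of 1.03 ± 0.60 (SE). NID1, the basement membrane protein nidogen 1, gave -1.17 ± 0.59 (SE) in that comparison. For infused livers against controls FMOD, fibromodulin, gave -1.36 ± 0.50 (SE), with an exact two-sided permutation p of 0.0242, and PRELP gave -1.06 ± 0.45 (SE), which was -0.56 without control 3.

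Matrix turnover, 15 genes tested, had a median of 0.69 for controls against baseline and of -0.66 for infused livers against controls, where 15 of 15 genes were below 0. PLAUR, the urokinase receptor, gave 1.53 ± 0.74 (SE) for controls against baseline, and 0.97 without control 2. MMP2, the gelatinase of stellate cells and fibroblasts, had 822, 350.2 and 1159.9 normalized counts in controls and 137 to 703 in infused livers, a log2 fold change of -1.49 ± 0.48 (SE). The exact two-sided permutation p of MMP2 was 0.0121 and its adjusted p in edgeR 1.00. PLAU, urokinase, gave -0.97 ± 0.46 (SE).

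The 14 genes of TGF-beta signalling had medians of -0.34 for controls against baseline and -0.16 for infused livers against controls. TGFB1 gave 0.99 ± 0.53 (SE) and TGFB2 -1.75 ± 0.92 (SE) for controls against baseline, the latter -0.80 without baseline 2. CCN2, a matrix-associated target of TGF-beta, gave -1.18 ± 0.51 (SE) for infused livers against controls, which turned to 0.35 without control 1, and SMAD3 gave 0.87 ± 0.53 (SE). The 5 genes of PDGF signalling had medians of 0.64 and -0.15. PDGFA, a ligand of the alpha receptor, gave 1.36 ± 0.88 (SE) for controls against baseline and PDGFD, a ligand of PDGFRB, gave 0.89 ± 0.71 (SE), which was 0.090 without control 1. For infused livers against controls PDGFD and PDGFRL gave -1.02 ± 0.49 (SE) and -1.01 ± 0.57 (SE). Both rest on 1 control, with -0.21 for PDGFD without control 1 and -0.25 for PDGFRL without control 2.

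Early targets of the factors SRF and YAP, 10 genes tested, had medians of -0.24 and -0.17, and CCN1 gave 1.46 ± 0.75 (SE) for controls against baseline and -0.94 ± 0.51 (SE) for infused livers against controls, and both rest on control 1, without which they were 0.42 and 0.097. The other members of the RGS family, 7 genes tested, had medians of 0.36 and -0.16. RGS1, a regulator found in lymphoid and myeloid cells, had 70.2 and 53.8 normalized counts at baseline and 475, 114 and 392 in controls, a log2 fold change of 2.42 ± 0.68 (SE) with an unadjusted p of 0.00302 and an adjusted p of 0.978 in edgeR. RGS2 gave 2.39 ± 0.97 (SE), and DESeq2 over the 5 libraries of that comparison called both RGS1 and RGS2. RGS16 and RGS18 gave 1.03 ± 0.77 (SE) and -0.60 ± 0.57 (SE) for infused livers against controls, which came to 0.38 without arterial 2 and to -0.27 without control 2.

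The medians of the lists for infused livers against controls were also taken without arterial 1, portal 1 and portal 4. They were -0.83 for portal fibroblasts and fibroblasts and -0.68 for matrix turnover, with 10 of 15 matrix turnover genes below 0. They were -0.40 for pericytes and vascular smooth muscle, -0.34 for PDGF signalling, -0.20 for matrix proteoglycans and glycoproteins, -0.19 for resting stellate cells, -0.18 for the RGS family, -0.069 for TGF-beta signalling, 0.0091 for SRF and YAP targets and 0.086 for the contractile cytoskeleton. The median over the members was then -0.038 and that over all genes -0.031, close to each other. For all infused livers against controls the lower median of the members was thus not seen without these 3 libraries. The lists of the contractile cytoskeleton and of SRF and YAP targets changed sign without them. For portal livers against controls the median of the members without them was -0.47, beside -0.064 over all genes, with 6 of 10 members below 0. Of the portal livers that value rests on portal 2 and portal 3 alone. The median of the members was -0.045 beside -0.00055 for arterial livers against controls. It was 0.62 beside 0.038 for arterial against portal livers, again with portal 2 and portal 3 alone.

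**Figure D5:**
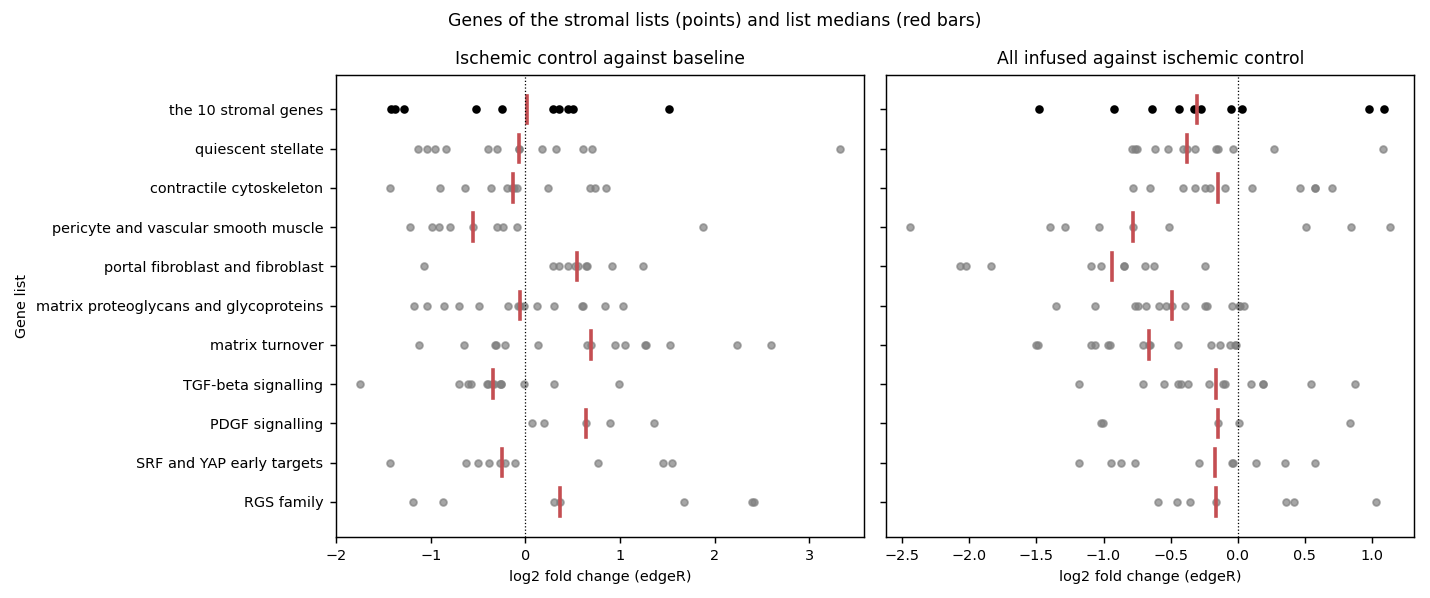
Log2 fold changes (linear axis) of the genes of the 10 stromal pathway lists, 1 point per gene with the list median marked, for controls against baseline and for all infused livers against controls. Between infused livers and controls the portal fibroblast list has the lowest median, -0.94, and the median over all genes tested is -0.023.

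Markers of other cell types that a liver biopsy can hold were summed in each library. The 9 macrophage markers measured, among them CD163, MARCO and the C1Q genes, came to 36289 to 64062 normalized counts in controls and to 23639 to 32078 in infused livers, without overlap, and to 21555 and 35689 at baseline. The macrophage sum was thus high in the same 3 controls against which SPARC, PDGFRB, MFAP4 and MMP2 were compared, and its part in their differences was not tested. Endothelial markers, 10 measured, came to 10216 to 23680 in controls and 8279 to 20950.1 in infused livers. The hepatocyte sum was 2122515 to 2584139 in controls and 1428604 to 3762413 in infused livers, with its lowest values in portal 1 and portal 4. Cholangiocyte markers were highest in arterial 4, at 7636 against 944 to 3517 in the others, the library that was among the 3 highest for 6 of the 10 members. Neutrophil markers, 5 measured, came to 923 to 977 at baseline and 676 to 11750 at 6 h, and lymphocyte markers to 582 to 656 at baseline and 415 to 2755 at 6 h. The erythroid sum ran from 997 to 29058. Mesothelial and capsular markers were low, at 33.3 to 73.7 normalized counts in controls, 7.43 to 56.6 in arterial livers, 0 to 23.9 in portal livers and 11.6 to 84.4 at baseline, with KRT5 and CALB2 at 0 in all 13 libraries. The portal sums lay below all 3 controls, as PDGFRB did, and both markers of this list that could be tested were lower in portal livers without overlap, where 2.33% of all genes tested were. Their median log2 fold change was -2.46, and their part in the values of the members was not tested.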

How the data were processed

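Liver RNA was enriched for mRNA and sequenced in 13 libraries. The authors used HISAT2 to map reads to Sscrofa11.1, the pig assembly, and FeatureCounts with Ensembl genes to count them, and deposited raw counts without normalization. Tool versions are not given in the sources used here. Library preparation did not keep the strand, so reads of overlapping antisense genes cannot be told apart. Libraries carry no molecular identifiers, so limits on a count of 0 (3 reads) cover counting error only. The labels name a miRNeasy kit for RNA isolation and the study's sequencing methods a NucleoSpin kit.

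Groups and replicate numbers came from the sample labels, and 0 columns were left without a sample. The members are the rows of the count table with the 10 symbols; the members and the gene lists were chosen with earlier results of these data known, so no pattern here is independent support. Genes were tested with edgeR 4.0.16 under R 4.3.3 (filterByExpr, TMM, quasi-likelihood test, 4 groups in 1 fit, Benjamini-Hochberg over 16481 genes, threshold 0.05). Normalized counts use the size factors of DESeq2 1.42.0. Single genes were also compared by exact two-sided permutation tests of the difference in mean log2(normalized count + 1). The study presents the libraries at 6 h as individual pigs. For the baseline pair the sources used here do not say so, and the spread within that pair may be technical. The edgeR p-values rest on a spread shared by the 4 groups in 1 fit. For controls against baseline they therefore do not measure the spread between baseline animals. No library was a copy of another of its group (16 pairs, smallest chi-square per gene 60.3). Gene positions were taken from RefSeq for Sscrofa11.1 by symbol.

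Named genes were the 10 members, of each of 10 pathway lists the 2 genes with the smallest unadjusted p for controls against baseline and the 2 for infused livers against controls, and the genes most like each member (3) and like their mean (10) by Pearson correlation over the libraries. Of the latter the leading genes are printed, and 1 gene that the rule names is not reported here. The symbols THY1, LAMA2, TIMP2, FHL2, RGS3 and TAGLN2 of the lists were not matched and are not analysed here. Alternatives were DESeq2 over all libraries or over the groups compared, RLE and upper quartile normalization, no filter, a block for the replicate number, each library left out, and the 11 livers at 6 h combined against baseline; leaving out arterial 1, portal 1 and portal 4 together, for genes and lists, was added after seeing the data. The test was tried on simulated data first.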

Additional observations from a re-analysis of the deposited data

Results flagged for a closer look

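Of 20 sets of 4 libraries tested, which were the 10 stromal genes in arterial and in portal livers, 2 held a library far from the others by Dixon's criterion (a gap of more than 0.829 of the whole range), and chance alone gives about 1 in 20. The normalized count of DES was 166 in portal 4 and 305 to 329.7 in the other portal livers, a gap of 0.847 of the range. The normalized count of DCN was 193 in portal 2 and 74.8 to 93.1 in the other portal livers, a gap of 0.846 of the range.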

How the results depend on the processing

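No member was called under any alternative, and of 36 log2 fold changes of members 22 kept their direction throughout, as did 33 of 38 of the other named genes. The number of genes called, 0 in each comparison, became 5 for controls against baseline, 1 for infused, 0 for arterial and 4 for portal livers against controls and 1 for arterial against portal with DESeq2 over all libraries. With DESeq2 over the groups compared these were 166 (103 higher, 63 lower), 0, 0, 3 and 0, and with no filter on low counts 30, 19, 11, 14 and 5. RLE or upper quartile normalization, each library left out in turn, and leaving out arterial 1, portal 1 and portal 4 (chosen after seeing the data) gave 0 in each. The cause of these differences was not tested. Same-numbered libraries of different groups did not deviate together (median correlation -0.03, 5 of 16 pairs over 0.1), so the numbers were not taken as pairing. With the replicate number as a block, 0 genes were called, and RGS5 for controls against baseline came to 0.12 and LUM for infused livers against controls to -0.98. All 11 livers at 6 h against baseline gave -0.0037 for DES and -0.53 for SPARC. Without arterial 1, portal 1 and portal 4, infused livers against controls gave 0.52 for FN1 and 0.22 for RGS5, and arterial against portal gave 1.04 for LUM and 0.62 for TIMP1.

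As each library was left out, the log2 fold changes that changed sign ranged as follows. For controls against baseline they lay between -0.10 and 0.77 for DES, -0.89 and 0.89 for DCN, -1.36 and 1.55 for RGS5, -0.041 and 0.88 for SPARC, -0.041 and 1.27 for MYL9, and -0.11 and 0.70 for FBLN1. For infused livers against controls they lay between -0.18 and 0.21 for TAGLN, -0.48 and 0.44 for FN1, -0.78 and 0.19 for RGS5, -1.09 and 0.22 for HGF, -1.59 and 0.35 for CCN2, and -1.28 and 0.10 for CCN1. For arterial livers against controls DCN lay between -0.85 and 0.10, and for arterial against portal livers ACTA2 lay between -1.16 and 0.57, TAGLN between -0.69 and 0.0045, LUM between -1.74 and 1.19, and FN1 between -0.76 and 0.047. With 2 baseline libraries and 3 controls, exact permutation tests cannot reach p = 0.05 for that comparison, and LUM and RGS5 are limited by their read counts.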
